A study of Mus musculus with 2 samples.

Results

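The IL-12 family cytokines and the cytokines usually read beside them in tumor myeloid cells were examined as 10 genes, chosen by name among the 32285 genes of the count matrices: Il23a, Il12b, Il12a, Ebi3 and Il27 for the IL-12 family, Il6, Il10 and Osm, and Tgfb1 and Inhba for the TGF-beta family. Of the neutrophils and macrophages among GR1+ cells of 4T1 breast tumors, each class held mainly 1 of the 2 chains of IL-12. Il12b had 0 UMIs (unique molecular identifiers, each standing for 1 captured transcript) in the neutrophils of either library and 100 and 252 UMIs in the macrophages of 4T1P and 4T1M. Il12a was the reverse, with 70 and 274 UMIs in neutrophils and 3 and 13 in macrophages. No neutrophil or macrophage held a UMI of both, which in neutrophils follows from the 0 Il12b UMIs. Cells of neither class, defined below, held 16 and 81 UMIs of Il12a and 5 and 77 of Il12b. Il23a was 2.25-fold higher in the neutrophils of the 4T1M library than in those of the 4T1P library.

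IL-12 family cytokines are pairs of proteins built from shared parts. The p40 chain, encoded by Il12b, joins p35 (Il12a) to give IL-12, which drives interferon-gamma production by T and NK cells, or p19 (Il23a) to give IL-23, which sustains IL-17 responses. Ebi3 joins p28 (Il27) to give IL-27 and has been described with p35 as IL-35, so that which cytokine a cell can make on its own depends on which of the chains it transcribes.

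The cells came from BALB/c mice bearing either the parental 4T1 line, 4T1P, which does not respond to anti-PD1, or 4T1M, a line derived from it by carcinogen mutagenesis that does respond. The labels give an age of 6 to 8 weeks, where the study's methods give female mice of an older range at tumor injection. GR1+ cells were taken from dissociated tumors by magnetic positive selection, and the label of the series gives 5 mice pooled per sample, where the study's text gives a smaller number. Each condition was thus 1 pooled 10x library from 1 tumor line, so no test between conditions could be made, the tumor line and the library cannot be told apart, and every interval below is a 95% interval that covers counting error only.

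Barcodes were kept as cells when they had between 500 and 5000 genes and no more than 10% of their UMIs from mitochondrial genes, 1726 of 2947 barcodes in 4T1P and 3461 of 5004 in 4T1M. Neutrophils were cells with at least 1.5% of UMIs from S100a8 and S100a9 and less than 0.5% from C1qa, C1qb, C1qc and Apoe, 612 in 4T1P and 1686 in 4T1M, with median depths of 3055 and 2958 UMIs. Macrophages were cells below that S100 limit with at least 0.3% of UMIs from C1qa, C1qb, C1qc, Apoe, Csf1r, Cd68 and Fn1, 798 and 976, with median depths of 9727 and 9214 UMIs. A further 11 and 53 cells passed the S100 limit and failed the C1q limit (mixed), and 305 and 746 passed neither class (neither). The labelled classes held their markers: 6 neutrophil markers outside the rule (Csf3r, Cxcr2, Retnlg, Hdc, G0s2 and Mmp8) summed to 15553 and 12758 CPM (UMIs per 1000000 UMIs of the class in that library) in neutrophils against 132 and 252 in macrophages, and 8 macrophage markers summed to 3057 and 2097 in macrophages against 82.7 and 103 in neutrophils. The libraries shared 5 barcodes, of which 3 were among retained cells.

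**Figure D1:**
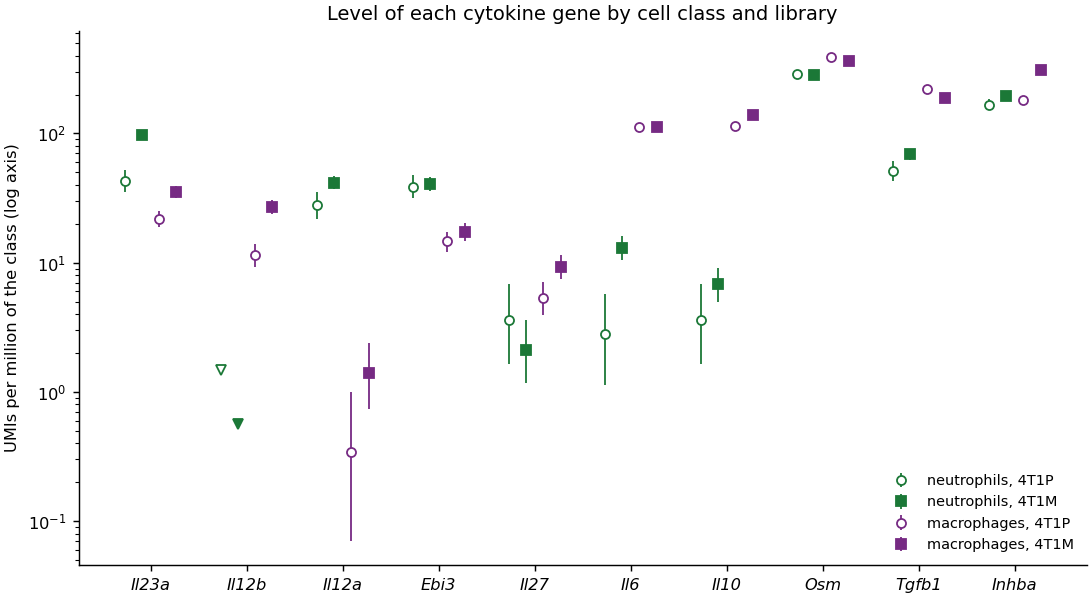
CPM of each gene (log axis) in the neutrophils (green) and macrophages (purple) of the 4T1P (open circles) and 4T1M (filled squares) libraries, with 95% Poisson intervals. Downward triangles mark the upper limit where 0 UMIs were counted. Il12b and Il12a sit at opposite ends of the 2 classes, and Il6 and Il10 lie in macrophages at 112 to 139 CPM against 2.80 to 13.1 in neutrophils.

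Promoter sequence is shown for 3 genes with a large split between the classes, the 2 subunits of IL-12 and Il6, as the 250 bases before the RefSeq start of transcription (GRCm38.p6, plus strand, written 5′ to 3′). The IL-12 p40 gene, Il12b (ENSMUSG00000004296), lies on chromosome 11 and its window is chr11:44399813-44400062. The IL-12 p35 gene, Il12a (ENSMUSG00000027776), lies on chromosome 3, and the window of the first of its 2 listed starts is chr3:68690394-68690643. The Il6 gene (ENSMUSG00000025746) lies on chromosome 5 with the window chr5:30012864-30013113. Capitals mark matches, on either strand, to TGANTCA (an AP-1 motif), TTCNNNGAA (a STAT motif), TTTCNNTTTC (an interferon response motif) or the NF-kB consensus.
Il12b: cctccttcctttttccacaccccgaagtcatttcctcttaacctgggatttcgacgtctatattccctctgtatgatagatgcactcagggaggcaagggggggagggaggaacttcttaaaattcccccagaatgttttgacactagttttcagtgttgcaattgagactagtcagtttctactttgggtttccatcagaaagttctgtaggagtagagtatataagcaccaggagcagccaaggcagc
Il12a: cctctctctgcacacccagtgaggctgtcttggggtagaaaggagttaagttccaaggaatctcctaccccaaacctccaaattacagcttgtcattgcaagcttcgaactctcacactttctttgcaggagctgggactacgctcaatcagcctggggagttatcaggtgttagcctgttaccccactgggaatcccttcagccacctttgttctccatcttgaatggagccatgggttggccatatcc
Il6: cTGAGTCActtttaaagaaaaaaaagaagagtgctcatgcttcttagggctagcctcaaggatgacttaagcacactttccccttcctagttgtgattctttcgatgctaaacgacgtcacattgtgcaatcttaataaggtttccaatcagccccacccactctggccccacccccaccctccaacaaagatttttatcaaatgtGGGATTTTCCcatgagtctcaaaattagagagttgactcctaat
The Il6 window held 1 AP-1 match at its far end and 1 NF-kB match 44 to 35 bases before the start, and these did not overlap. None of the 4 motifs was found in the windows of Il12b or Il12a, which says only that these letters are not there. Of all 32851 windows of this length in the RefSeq table, 6.75% held the AP-1 motif, 7.02% the STAT motif, 2.98% the interferon response motif and 7.25% the NF-kB consensus. The table matched 6 of the 10 genes, and the Ebi3 and Tgfb1 windows each held 1 NF-kB match.

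Il12b encodes p40, the chain that IL-12 and IL-23 share. In 612 neutrophils of 4T1P and 1686 of 4T1M it was counted 0 times, which allows up to 1.2 and 0.456 CPM at 3 counts and a share of cells with a UMI, not of cells expressing the gene, of up to 0.490% and 0.178%. In macrophages it stood at 11.4 (9.28 to 13.9) CPM in 4T1P and 27 (23.7 to 30.5) in 4T1M. The exact upper limits for 0 UMIs in neutrophils were 1.47 and 0.561 CPM. Against a floor of 3 counts over the neutrophils of each library, the macrophage values were 9.52-fold higher in 4T1P and 59.2-fold higher in 4T1M. These folds leave out the counting error of the macrophage sums and are not lower limits. The lower limits of the exact log2 intervals of macrophages over neutrophils were 2.93 and 5.58. Il12b was rare among macrophages, with a UMI in 15 of 798 cells (1.88%, 1.06 to 3.08) and 26 of 976 cells (2.66%, 1.75 to 3.88). With every cell cut at random to 1000 UMIs (thinned), these shares were 0.518% (0.141 to 1.32) and 0.852% (0.369 to 1.67).

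A few cells carried most of the p40 transcript. In 4T1P, 1 macrophage held 53 of the 100 UMIs, and 3 cells with 5 or more UMIs held 82. In 4T1M the highest macrophage held 47 of 252 UMIs, and 14 cells with 5 or more held 231. Without the 5 highest cells of each library, the macrophages stood at 1.39 CPM in 4T1P and 12.2 in 4T1M. The Il12b-positive macrophages were deep cells, with a median of 21305 UMIs in 4T1P and 14246 in 4T1M. All 15 and all 26 of them held at least 3 UMIs of the macrophage marker list, while at least 3 UMIs of the dendritic cell list (Flt3, Zbtb46, Ccr7, Fscn1, Xcr1, Clec9a and Cd209a) were found in 1 of 15 and 0 of 26. The macrophage list summed to 3057 and 2097 CPM over the class, so most macrophages this deep would reach 3 UMIs. That count therefore cannot tell these cells from other macrophages. Over the whole macrophage class the 7 dendritic markers summed to 5.93 CPM in 4T1P, with all 7 detected, and to 11.5 in 4T1M, with 6 detected, and their part in the Il12b values was not tested. Outside both classes, 1 cell of 4T1P held 5 Il12b UMIs, and in 4T1M 4 cells of neither class held 77 and 1 mixed cell held 2. Over all cells of neither class Il12b stood at 3.22 (1.05 to 7.53) CPM in 4T1P and 26.1 (20.6 to 32.6) in 4T1M. Of the 4 positive cells of neither class in 4T1M, 1 held 43 UMIs of Il12b beside 114 dendritic marker UMIs and no macrophage marker, and another held 30 beside 22 macrophage marker UMIs.

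Il12a, the p35 chain that completes IL-12, was higher in neutrophils than in macrophages. It measured 28.0 (21.8 to 35.3) CPM in the neutrophils of 4T1P and 41.6 (36.9 to 46.9) in those of 4T1M. In macrophages it measured 0.342 (0.0706 to 1.0) and 1.39 (0.741 to 2.38), and in cells of neither class 10.3 (5.90 to 16.8) and 27.5 (21.8 to 34.1). The cell with the most Il12a UMIs, 14, was of neither class in 4T1M, and no neutrophil held more than 7. Neutrophils were thus 81.7-fold higher than macrophages in 4T1P, on 3 macrophage UMIs (log2 interval of macrophages over neutrophils, -8.66 to -4.75), and 29.9-fold higher in 4T1M. Macrophage Il12a equalled 1.22% and 3.34% of the neutrophil level, next to 0.352 to 4.68% (median 1.04%) and 0.686 to 12.5% (median 2.22%) for the 6 neutrophil markers. Both values lay within the span of these markers and above their median, and the source of the macrophage UMIs was not tested. A UMI was found in 50 of 612 neutrophils (8.17%, 6.12 to 10.6) in 4T1P and in 181 of 1686 (10.7%, 9.30 to 12.3) in 4T1M, and thinned to 1000 UMIs in 3.43% and 3.45%. Among macrophages, the deeper class, the unthinned shares were 0.376% and 0.922%.

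Il23a encodes p19, the chain particular to IL-23, and was present in both classes. Neutrophils held 108 UMIs in 4T1P, or 43.1 (35.4 to 52.1) CPM, and 638 in 4T1M, or 97.0 (89.6 to 105) CPM. Macrophages held 192 UMIs, or 21.9 (18.9 to 25.2) CPM, and 329, or 35.2 (31.5 to 39.2). The order from the lowest was macrophages of 4T1P, macrophages of 4T1M, neutrophils of 4T1P and neutrophils of 4T1M, and the intervals of 4T1M macrophages and 4T1P neutrophils overlapped. The share of neutrophils with a UMI was 8.50% (6.41 to 11) in 4T1P and 16.9% (15.1 to 18.8) in 4T1M, and 4.25% (2.79 to 6.16) and 7.79% (6.55 to 9.17) after thinning. The share of macrophages with a UMI did not separate the libraries, at 11.5% (9.40 to 14.0) and 12.1% (10.1 to 14.3). In macrophages the transcript was uneven, and a single cell held 40 of the 192 UMIs in 4T1P and 42 of the 329 in 4T1M.

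Ebi3, the chain shared by IL-27 and IL-35, was also higher in neutrophils. It measured 38.8 (31.4 to 47.3) and 40.6 (35.9 to 45.7) CPM in the neutrophils of 4T1P and 4T1M, and 14.6 (12.2 to 17.4) and 17.2 (14.7 to 20.1) in the macrophages. No cell of either class held more than 5 UMIs, and after thinning a UMI was found in 3.43% and 3.03% of neutrophils and in 1.68% and 1.49% of macrophages. The Ebi3 gene is overlapped by an antisense gene, Gm16712. Il27, the p28 chain, was scarce. Macrophages held 47 and 87 UMIs, or 5.36 (3.94 to 7.13) and 9.31 (7.46 to 11.5) CPM, and neutrophils 9 and 14, or 3.60 (1.64 to 6.83) and 2.13 (1.16 to 3.57). The macrophage and neutrophil intervals overlapped in 4T1P and did not in 4T1M, and Il27 is overlapped on the opposite strand by Apobr.

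**Figure D2:**
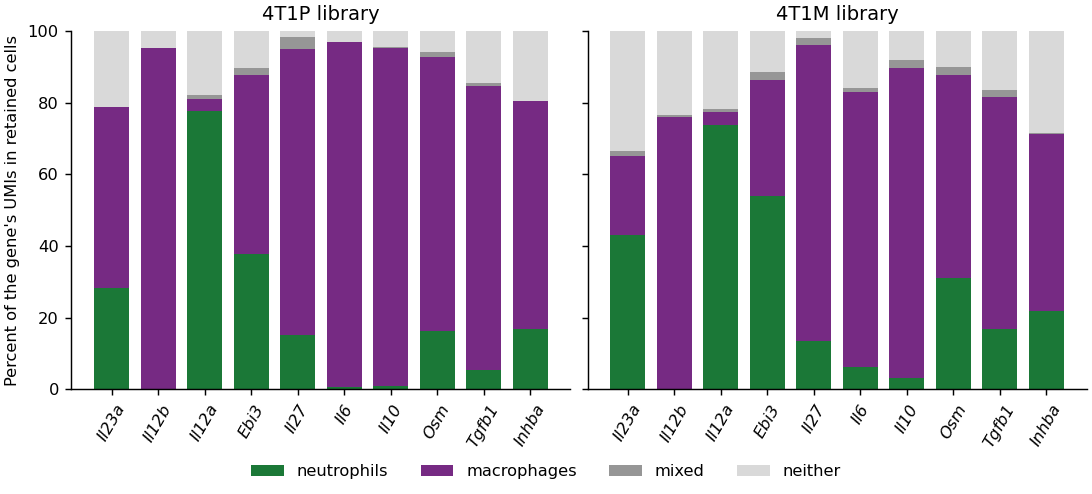
Percent of each gene's UMIs in retained cells that lay in neutrophils (green), macrophages (purple), mixed cells (dark gray) and cells of neither class (light gray), for the 4T1P and 4T1M libraries. Il12b has no neutrophil part, with 95.2% and 76.1% of its UMIs in macrophages, while 77.8% and 73.9% of Il12a UMIs lay in neutrophils.

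Which subunits met in one cell was then counted directly, on all UMIs. For IL-12, 0 of 612 and 0 of 1686 neutrophils and 0 of 798 and 0 of 976 macrophages held both Il12a and Il12b. In neutrophils this follows from the 0 Il12b UMIs. Only 3 and 9 macrophages held Il12a and 15 and 26 held Il12b, so few could have held both. The only retained cell with both was 1 cell of neither class in 4T1M, with 1 UMI of each and 4 neutrophil marker UMIs. It was among the S100-low cells with neutrophil markers described below. For IL-23, none of the 15 Il12b-positive macrophages of 4T1P held Il23a (0%, 0 to 21.8), and 8 of the 26 in 4T1M did (30.8%, 14.3 to 51.8). For comparison, 11.5% and 12.1% of all macrophages held Il23a. The Il12b-positive macrophages were deeper, with medians of 21305 and 14246 UMIs against 9727 and 9214 in the class, so depth was not separated here. Neutrophils held Il23a without p40 in all 52 positive cells of 4T1P and all 285 of 4T1M, which again follows from their 0 Il12b UMIs.

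For IL-27, both Il27 and Ebi3 were found in 4 and 3 neutrophils and in 7 and 12 macrophages of 4T1P and 4T1M. In macrophages, Ebi3 was found in 15.6% (6.49 to 29.5) and 16.2% (8.67 to 26.6) of Il27-positive cells against 13.7% and 13.5% of all macrophages. For the IL-35 pair, both Il12a and Ebi3 were found in 7 and 24 neutrophils, and Ebi3 was found in 14.0% (5.82 to 26.7) and 13.3% (8.68 to 19.1) of Il12a-positive cells against 11.3% and 12.3% of all neutrophils. Counts of cells with both chains depend on depth: over the 4 pairs, 67 cells of the 2 classes held both chains with all UMIs and 3 did after thinning to 1000 UMIs. Among chains that do not pair, Il23a was found in 45 of 181 Il12a-positive neutrophils of 4T1M (24.9%, 18.7 to 31.8) against 16.9% of all its neutrophils, and in 3 of 50 in 4T1P (6.00%, 1.25 to 16.5) against 8.50%. Il12a-positive neutrophils were deeper than the others, with median depths of 4005 and 3828 UMIs against 2984 and 2869.

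Il6, which signals through gp130 and marks acute inflammatory activation, was higher in macrophages than in neutrophils. Cells of neither class held 30 and 215 UMIs, or 19.3 (13.1 to 27.6) and 72.9 (63.4 to 83.3) CPM. In 4T1M, 5 of those cells held 126 of the 215. Macrophages held 985 and 1047 UMIs, or 112 (105 to 120) and 112 (105 to 119) CPM, in 171 of 798 cells (21.4%) and 219 of 976 (22.4%). Neutrophils held 7 UMIs, or 2.80 (1.12 to 5.76) CPM, in 4T1P and 86, or 13.1 (10.5 to 16.1), in 4T1M, where 1 cell held 25 of the 86. The 5 highest neutrophils held 6 of the 7 UMIs in 4T1P and 67 of the 86 in 4T1M, and the other neutrophils 1 and 19, or 0.405 and 2.93 CPM. The share of neutrophils with a UMI was 0.980% (0.361 to 2.12) and 1.36% (0.867 to 2.04), with overlapping intervals. The neutrophil level was 2.49% of the macrophage level in 4T1P, inside the 1.37 to 4.19% spanned by the 8 macrophage markers, and 11.7% in 4T1M, above the 1.37 to 7.71% spanned there.

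Il10, an anti-inflammatory cytokine of macrophages and regulatory lymphocytes, followed the same split. It measured 115 (108 to 122) and 139 (132 to 147) CPM in macrophages, with a UMI in 22.1% and 23.8% of cells. In neutrophils it measured 3.60 (1.64 to 6.83) and 6.84 (4.99 to 9.15), in 9 and 31 cells. These neutrophil levels were 3.14% and 4.92% of the macrophage levels, within the range of the macrophage markers in both libraries. Il6 and Il10 were found together in 64 and 80 macrophages, and 36.4% (29.3 to 43.9) and 34.5% (28.4 to 41.0) of Il10-positive macrophages held Il6 against 21.4% and 22.4% of all macrophages, the positive cells being deeper.

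Osm, the gp130 cytokine oncostatin M, was carried by both classes at like levels. It measured 286 (265 to 308) and 284 (271 to 297) CPM in neutrophils and 388 (375 to 401) and 366 (354 to 379) in macrophages. A UMI was found in 45.8% and 42.5% of neutrophils and 58.8% and 58.0% of macrophages, and after thinning the 4 shares lay between 19.9% and 22.4%. Tgfb1, the ligand TGF-beta 1, measured 51.1 (42.7 to 60.8) and 69.0 (62.8 to 75.6) CPM in neutrophils and 222 (212 to 232) and 188 (179 to 197) in macrophages. Inhba, whose product dimerizes into activin A, measured 167 (151 to 183) and 195 (184 to 206) in neutrophils and 182 (173 to 191) and 310 (299 to 322) in macrophages. Inhba was concentrated in few macrophages, with a UMI in 16.5% of them in 4T1P and 25.8% in 4T1M and up to 98 and 129 UMIs in 1 cell, and the gene is overlapped by the antisense genes B230303A05Rik and Gm48444.

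Set side by side, macrophages were higher than neutrophils by 1.5-fold or more for 4 of the 10 genes in 4T1P (Il12b, Il6, Il10 and Tgfb1), where 63% of all genes tested were, and for 6 in 4T1M (these 4 with Il27 and Inhba), where 60.7% were. They were lower by 1.5-fold or more for the same 3 genes in both libraries, Il23a, Il12a and Ebi3, where 16.3% and 17.5% of all genes were. The median gene was 1.2 higher on the log2 scale in macrophages of 4T1P and 1.05 higher in those of 4T1M under total-count scaling. Scaling by TMM factors lowered the log2 ratio of macrophages over neutrophils by the same amount for every gene, 0.93 in 4T1P and 0.89 in 4T1M, so that positive ratios smaller than this changed sign. Those were Osm (from 0.44 to -0.49 in 4T1P and from 0.37 to -0.53 in 4T1M), Inhba (from 0.13 to -0.80 and from 0.67 to -0.22) and Il27 in 4T1P (from 0.58 to -0.35). The other directions held under it, with Tgfb1 going from 2.12 to 1.19 in 4T1P and from 1.44 to 0.55, under 1.5-fold, in 4T1M.

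The comparison of libraries asked whether these cytokines differed between GR1+ cells of non-responsive and responsive tumors. In neutrophils, 9 of the 10 genes had at least 10 UMIs. Il23a (log2 ratio of 4T1M over 4T1P 1.17, 0.87 to 1.48), Il6 (2.22, 1.12 to 3.58) and Il10 (0.93, -0.12 to 2.15) were higher in 4T1M by 1.5-fold or more, 3 genes where 17% of all genes tested were. Il27 was lower by 1.5-fold or more on 9 and 14 UMIs (-0.76, -2.07 to 0.63), 1 gene where 9.52% of all were. Of these 4 genes, the interval lay apart from 0 for Il23a and Il6 and included 0 for Il10 and Il27. The Il6 sums lay mostly in 5 cells of each library, as given above, and the share of cells with an Il6 UMI did not separate the libraries. An alternative chosen after seeing the data left out, for each gene, the 5 cells with the most UMIs of it in each library. The log2 ratio of Il6 was then 2.85 on 1 and 19 UMIs, while that of Il27 turned to 0.57 on 2 and 8 UMIs. For Il6 this took 5 of 6 positive neutrophils in 4T1P but 5 of 23 in 4T1M, and for Il27 5 of 7 and 5 of 13. It removed a larger part of the 4T1P sums, so these 2 ratios cannot show whether either difference holds. Il12a (0.57, 0.19 to 0.97), the nearest to 1.5-fold, Tgfb1 (0.43, 0.15 to 0.73) and Inhba (0.23, 0.07 to 0.39) were higher by less than that, and Ebi3 (0.07, -0.27 to 0.42) and Osm (-0.01, -0.14 to 0.11) did not differ beyond counting error. The median over all 9994 genes tested was 0.05. Summed markers of other cells in the neutrophils moved with the libraries: all 4 tumor epithelial markers were detected in both, at 69.5 CPM in 4T1P and 12.9 in 4T1M, and all 8 macrophage markers, at 82.7 and 103, and their part in these differences was not tested.

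In macrophages, 5 of 10 genes were higher in 4T1M by 1.5-fold or more, where 7.65% of all genes tested were, and 0 were lower, where 8.11% were. These were Il12a (2.02, 0.16 to 4.48, on 3 and 13 UMIs), Il12b (1.24, 0.90 to 1.59), Il27 (0.80, 0.27 to 1.34), Inhba (0.77, 0.68 to 0.86) and Il23a (0.69, 0.42 to 0.95). The share of macrophages with a UMI separated the libraries for Inhba only (14.0 to 19.3% against 23.1 to 28.7%). For Il12a, Il12b, Il27 and Il23a the intervals of these shares overlapped. Il10 (0.28, 0.16 to 0.40) and Ebi3 (0.24, -0.10 to 0.59) were higher by less than 1.5-fold, the interval of Ebi3 including 0, and Il6 did not differ beyond counting error (0.00, -0.13 to 0.12). Osm (-0.08, -0.15 to -0.01) and Tgfb1 (-0.24, -0.33 to -0.15) were slightly lower. The size of the Il12b difference depended on single cells and on the upper gene limit: its log2 ratio was 2.03 without the highest cell of each library, 2.80 at a mitochondrial limit of 5%, 3.8 at an upper limit of 4000 genes and 0.74 without an upper limit, the last tried after seeing the data. That of Il23a was 0.10 where macrophages needed 1% of marker UMIs and 0.38 at an upper limit of 4000 genes. The macrophages also differed in makeup, with 8 of 8 macrophage markers summing to 3057 CPM in 4T1P and 2097 in 4T1M and 6 of 6 neutrophil markers to 132 and 252, and their part was not tested.

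**Figure D3:**
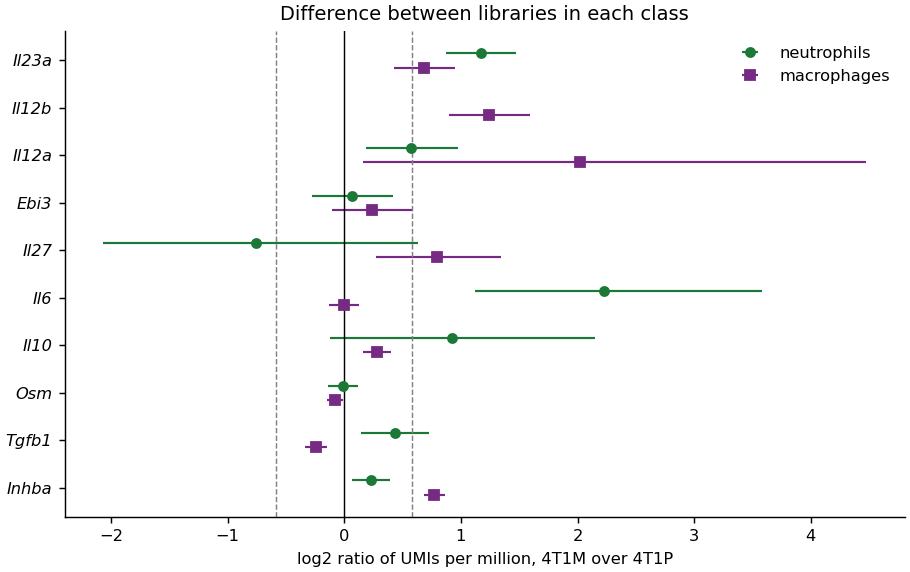
Log2 ratio of CPM, 4T1M over 4T1P, in neutrophils (green circles) and macrophages (purple squares), with exact 95% intervals for counting error; dashed lines mark 1.5-fold. Il23a is higher in 4T1M in neutrophils (1.17) and macrophages (0.69, but 0.10 with macrophage markers at 1%), Il6 is at 2.22 in neutrophils, where 5 cells held 67 of its 86 4T1M UMIs, and Tgfb1 has opposite signs (0.43 and -0.24); no difference between classes was tested.

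Some neutrophil-marker cells fell under the S100 limit and so in neither class. Cells of neither class with at least 3 UMIs of the 6 neutrophil markers, and more of these than of the T, B, dendritic and macrophage lists together, numbered 105 in 4T1P and 394 in 4T1M, a split chosen after the data were seen. Il23a was higher in them than in neutrophils, at 181 (139 to 230) and 323 (290 to 358) CPM, or 4.19-fold and 3.33-fold. Inhba was too, at 542 (469 to 624) and 335 (302 to 371) CPM, but 5 cells held 124 of its 195 UMIs in 4T1P and 108 of 374 in 4T1M, and the other cells stood at 211 and 244 CPM. The libraries also differed here in other cells' markers: 3 of 3 fibroblast markers were found in 4T1P (275 CPM) and 0 of 3 in 4T1M, 0 of 3 and 3 of 3 mast cell or basophil markers (42.1 CPM in 4T1M), 0 of 4 and 4 of 4 T or NK cell markers (33.2 CPM in 4T1M), and 8 and 7 of 8 macrophage markers (192 and 69.0 CPM), and their part was not tested. Il12a, at 25 (11.4 to 47.5) and 33.2 (23.3 to 45.7), did not differ from neutrophils beyond counting error. Il12b was counted once in 4T1M, in the only retained cell that held both Il12a and Il12b. The median gene was 0.51 and 0.46 higher on the log2 scale in these cells than in neutrophils. With these cells added to the neutrophils, Il23a and Il6 were higher and Il27 lower in 4T1M by 1.5-fold or more, Il10 was not (0.41), and the Inhba ratio was 0.01. The other 200 and 352 cells of neither class held Il12a at 5.88 (2.36 to 12.1) and 24.0 (17.4 to 32.2) CPM. In them Il6 stood at 19.3 (12.2 to 29.0) and 98.6 (84.8 to 114), and Inhba at 245 (218 to 275) and 706 (668 to 745). In 4T1M, 5 of them held 28 of 44 Il12a UMIs, 5 held 126 of 181 Il6 UMIs and 5 held 460 of 1295 Inhba UMIs.

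Within each class the genes were next followed across cell states, taken as ranges: cells at or above a cut in UMIs of a short gene list among 1000 thinned UMIs, set once over both libraries so that at most 25% of the cells of the class reached it. In neutrophils, the granule list (Camp, Ltf, Ngp, Lcn2, Elane, Mpo, Prtn3 and Chil3, secondary and primary granule proteins of immature cells) separated the chains. Ebi3 was higher in the 160 and 384 granule-high cells, at 53.3 and 58.2 CPM against 28.6 and 31.4 in the others (log2 ratios 0.90, 0.29 to 1.51, and 0.89, 0.53 to 1.25). Il23a was lower in them, at 22.3 and 52.0 CPM against 57.8 and 120 (-1.38, -2.11 to -0.70, and -1.21, -1.51 to -0.92). Tgfb1, Inhba and Osm were lower in granule-high neutrophils in both libraries as well, and Il12a was lower in 4T1M (-0.80, -1.23 to -0.39) and within counting error in 4T1P (-0.52, -1.31 to 0.23). The cut lay at 3 UMIs, and 116 and 324 cells were within 1 UMI of it. Granule-high cells were deeper, with medians of 4531 and 4217 UMIs against 2845 and 2711.

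Il23a followed the NF-kB list (Nfkbia, Tnfaip3, Nfkbie, Nfkb2, Birc3, Icam1, Cd40 and Traf1, targets and feedback inhibitors of the pathway). In 79 and 442 high neutrophils it measured 152 and 212 CPM, against 30.4 and 64.1 in the other neutrophils (log2 ratios 2.32, 1.72 to 2.91, and 1.72, 1.5 to 1.95). Osm was slightly higher in the same cells (0.36, 0.03 to 0.68, and 0.39, 0.24 to 0.54), and Il12a did not differ beyond counting error in either library. Across the interferon list (Ifit1, Ifit2, Ifit3, Isg15, Rsad2, Ifi44, Oasl1, Irf7, Cmpk2 and Usp18), Il23a differed in 4T1M (0.37, 0.12 to 0.62) and not beyond counting error in 4T1P (-0.78, -1.88 to 0.16), and Osm was higher in both (0.49, 0.21 to 0.76, and 0.32, 0.18 to 0.47). In neutrophils with a Ly6e UMI, 35 in 4T1P and 244 in 4T1M, Il23a measured 50.7 and 170 CPM against 42.6 and 83.9 in the others (0.25, -0.92 to 1.24, and 1.02, 0.76 to 1.28). A Ly6e cell rests on 1 UMI, so nearly all cells were within 1 UMI of that cut.

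In macrophages, Inhba varied widely across the lists. In the cells high for Thbs1, Mmp12, Arg1 and Sdc1, genes of matrix-associated and arginase-expressing macrophages, it measured 319 and 819 CPM against 136 and 183 in the others (log2 ratios 1.23, 1.09 to 1.38, and 2.16, 2.05 to 2.27). In the cells high for Lyve1, Cd163, Folr2 and Mrc1, markers of tissue-resident macrophages, it measured 10.8 and 25.4 against 220 and 343 (-4.36, -5.14 to -3.67, and -3.76, -4.40 to -3.18). Il23a and Il6 were higher in the Thbs1-Arg1 range too, Il6 at 192 and 169 CPM against 85.0 and 98.2, and Il23a at 39.3 and 46.4 against 16.0 and 32.5, although in 4T1P the Il23a log2 ratio of 1.3 became 0.44 (-0.09 to 0.94) without its highest cell. Il6, Il10, Osm, Tgfb1 and Inhba were each higher in the NF-kB-high macrophages of both libraries, Inhba by the most (2.14, 2.0 to 2.29, and 1.60, 1.5 to 1.71) and Tgfb1 by the least (0.30, 0.16 to 0.45, and 0.32, 0.17 to 0.46).

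For Il12b in macrophages, single cells decided several of these ratios. The 57 and 232 interferon-high macrophages held 56 and 110 Il12b UMIs, or 76.7 and 38.7 CPM, against 5.49 and 21.9 in the others (log2 ratios 3.8, 3.21 to 4.41, and 0.82, 0.45 to 1.19), but in 4T1P 53 of those 56 UMIs came from 1 cell. Without the highest cell of each library, a step added after seeing the data, the 4T1P interferon-high macrophages held 3 Il12b UMIs, or 4.26 CPM (-0.36, -2.70 to 1.28), and the 4T1M ratio was 1.39 (0.98 to 1.80). The 185 Thbs1-Arg1-high macrophages of 4T1P held 0 Il12b UMIs of 100, and the 179 of 4T1M held 27 of 252 (-1.07, -1.70 to -0.49). For the MHC class II list (H2-Aa, H2-Ab1, H2-Eb1 and Cd74, which present peptides to T cells), the libraries went opposite ways, with log2 ratios of -1.86 (-3.22 to -0.76) in 4T1P and 1.23 (0.86 to 1.59) in 4T1M, and of -0.65 (-2.05 to 0.52) and 0.57 (0.14 to 0.98) without the highest cells. Il27 was higher in macrophages with a Cxcl9 or Cxcl10 UMI (1.04, 0.09 to 1.94, and 0.70, 0.01 to 1.36). High macrophages were deeper than the others in both libraries for every list named here.

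**Figure D4:**
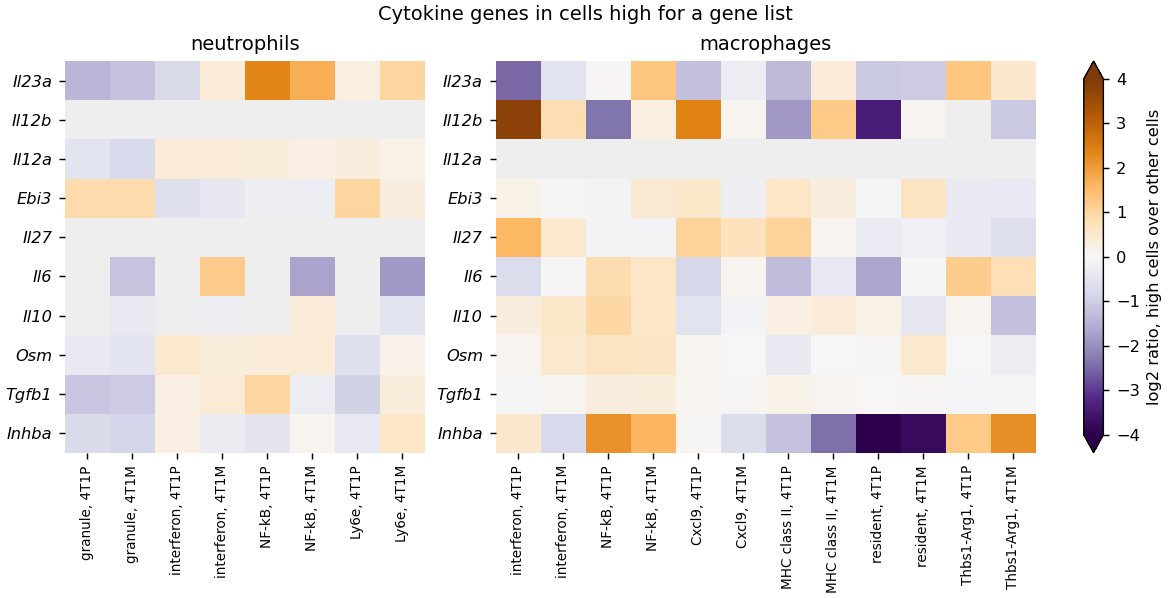
Log2 ratio of CPM in cells high for a gene list over the other cells of the class, in each library, for neutrophils and macrophages (orange higher, purple lower; gray cells had fewer than 20 UMIs or 0 in the high cells). In both libraries Il23a is highest in NF-kB-high neutrophils (2.32 and 1.72) and Inhba is lowest in macrophages high for resident markers (-4.36 and -3.76).

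Genes most like each cytokine were named as those with the highest ratio of CPM in cells with against cells without a UMI of it, taking the lower of the libraries, over 2364 genes in neutrophils and 6731 in macrophages. In neutrophils these were Saa3, Cxcl1 and Cs for Il23a, with Cxcl1, a neutrophil-attracting chemokine, at 1421 and 1253 CPM in positive cells against 261 and 448 in the rest. For Ebi3 they were Chil3, Camp and Ltf, with Camp, a granule peptide, at 15548 and 7389 CPM against 359 and 469. For Il12a they were Ccl2, Schip1 and Irak3, and for Tgfb1 Arg1, Ccl9 and Lgmn. For Osm they were Ahnak, Mmp12 and Arg1, and for Inhba Chil3, Camp and Orm1, although Inhba was lower over the whole granule-high range. Mmp12 and Arg1 are also in the Thbs1-Arg1 list used above for macrophages, and the part of macrophage transcripts in these neutrophils was not tested. The rule favors genes of deep cells, and positive neutrophils were deeper for each of these 6 cytokines, with medians of 3336 to 5174 UMIs against 2670 to 3003 in the rest.

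In macrophages, Inhba went with Cxcl3, Sdc1 and Met, Cxcl3 standing at 1793 and 1618 CPM in Inhba-positive cells against 176 and 168 in the rest. Il6 went with Areg, F3 and Lif, with Areg, an EGF receptor ligand, at 218 and 213 CPM against 66.1 and 46.2. Il10 went with Retnla, Tbc1d4 and Grasp, and Il23a with Hp, Areg and Cxcl3. For Ebi3, Osm and Tgfb1 the leading genes were Smpdl3b, Mir155hg and B930036N10Rik, with log2 ratios for Smpdl3b of 0.96 and 0.77. Positive macrophages had medians of 12063 to 17258 UMIs against 2082 to 7912 in the rest, so depth and expression were not separated there.

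The receptors were read from the same cells. The IL-12 and IL-23 receptor chains were nearly absent, with 1 and 1 UMIs of Il12rb1 in neutrophils and 24 and 37 in macrophages, 1 and 0 of Il12rb2 in neutrophils and 12 and 25 in macrophages, and for Il23r 0 and 3 in neutrophils and 0 and 0 in macrophages. Il27ra had 0 and 0 UMIs in neutrophils and 8 and 6 in macrophages, and 24 and 33 in the cells of neither class that did not meet the neutrophil-marker rule. Those cells were mixed. They held T or NK cell markers at 1087 and 625 CPM, macrophage markers at 706 and 528 and B cell markers at 408 and 288. Dendritic markers stood at 317 and 363, neutrophil markers at 84.0 and 179 and tumor epithelial markers at 69.7 and 316. The receptors of IL-6 and IL-10 were in both classes: Il6ra stood at 54.7 and 65.3 CPM in neutrophils and 64.6 and 63.7 in macrophages, and Il10ra at 63.1 and 83.7 and at 68.3 and 69.8. The shared chain Il6st (gp130) stood at 2.40 and 1.82 in neutrophils and 14.8 and 12.4 in macrophages. Osmr, a receptor chain of oncostatin M, had 5 and 1 UMIs in neutrophils and 3 and 2 in macrophages. Tgfbr1 and Tgfbr2 stood at 45.9 to 55.6 CPM in neutrophils and 79.8 to 124 in macrophages, and of the activin receptors Acvr2a had 8 and 18 UMIs in neutrophils and 65 and 75 in macrophages, Acvr1c being at 0 in all 4.

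Other genes of the pathways, from lists taken as fixed groups, were compared between libraries in the same way. Over all genes tested, 17% were higher and 9.52% lower in neutrophils by 1.5-fold or more, and 7.65% and 8.11% in macrophages, beside which the counts that follow are given. Of 17 receptor genes, 9 were tested in neutrophils, with 1 higher by 1.5-fold or more (Acvr1b), 0 lower and a median log2 ratio of 0.21, and 13 in macrophages, with 1 higher (Il12rb2), 1 lower (Acvr1b) and a median of 0.03. The intervals of Acvr1b in neutrophils (-0.23 to 1.53) and of Il12rb2 in macrophages (-0.08 to 2.09) included 0. Of 12 kinases, STATs, SMADs and feedback genes, 3 were higher in neutrophils (Jak2, Tyk2 and Stat4) and 2 in macrophages (Jak2 among them), with 0 lower and medians of 0.14 and 0.00. The intervals of Tyk2 (-0.22 to 2.38) and Stat4 (-0.62 to 2.56) included 0. Jak2, a kinase used by IL-12 and IL-23 receptors, measured 98.7 and 173 CPM in neutrophils (0.81, 0.61 to 1.02) and 60.7 and 96.4 in macrophages (0.67, 0.51 to 0.83).

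Of 15 regulators of these cytokine genes, 14 were tested in neutrophils, with 2 higher (Irf5 and Prdm1), 0 lower and a median of 0.33, and 15 in macrophages, with 0 higher, 1 lower (Maf) and a median of 0.04. Prdm1, the repressor Blimp-1, measured 7.19 and 19.5 CPM in neutrophils (1.44, 0.72 to 2.24), and Irf5, a factor of inflammatory cytokine genes, 12.4 and 19.8 (0.67, 0.10 to 1.29). Maf, a factor of Il10 expression and of resident macrophages, measured 242 and 140 in macrophages (-0.79, -0.89 to -0.69). Of 15 related ligands, 3 were tested in neutrophils, with 1 higher (Cntf) and 1 lower (Tgfb3), and 7 in macrophages, with 0 higher and 4 lower (Tgfb2, Tgfb3, Inhbb and Gdf15) and a median of -0.89. Cntf rested on 1 and 10 UMIs and Tgfb3 in neutrophils on 5 and 8, and Tgfb2 and Inhbb in macrophages each on 9 and 2, all with intervals that included 0. Of 12 activators and inhibitors of TGF-beta and activin, 8 were tested in neutrophils, with 1 higher (Fst) and 3 lower (Fstl3, Ltbp3 and Thbs1), and 10 in macrophages, with 1 higher (Fstl1) and 3 lower (Fst, Fstl3 and Thbs1). The intervals of Fst in neutrophils, on 4 and 26 UMIs, and of Fstl3 in both classes included 0. Thbs1, an activator of latent TGF-beta, measured 250 and 132 in macrophages (-0.93, -1.03 to -0.82), and Fst, which binds activin, had 43 and 15 UMIs. The median over all 12352 genes tested in macrophages was -0.03.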

How the data were processed

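GR1+ cells of 1 pooled 4T1P and 1 pooled 4T1M sample were profiled by 10x single-cell RNA-seq. The authors aligned reads to mm10 (GRCm38) with Cell Ranger, version 4.0.0 per the file headers and the submitters' notes (the study's methods name a later one), and deposited a matrix of UMI counts, not normalized, for each library. The deposited counts total 21855657 UMIs in 4T1P and 24303957 in 4T1M. Cell limits and classes were applied as given in the report with Python 3.11.15, numpy 2.4.6 and scipy 1.17.1. No doublet caller was run: mixed cells were left out of both classes, and an upper limit of 4000 genes was tried. Within each library the UMIs of a class were summed and divided by the class total (CPM, per 1000000). With 1 library per condition no test was run. Sums have exact Poisson intervals, shares exact Clopper-Pearson intervals and ratios exact conditional binomial intervals, which cover counting error only. A gene was tested for 1.5-fold if it had at least 10 UMIs in the 2 sums together. TMM factors came from edgeR 4.0.16 and size factors from DESeq2 1.42.0, used for scaling only. Ratios and intervals were tested on counts simulated with Poisson error, the error the intervals assume. The simulation held no clumping of UMIs in single cells, so it cannot show how the intervals behave there. Positions follow the GENCODE annotation of GRCm38.

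Named were all 10 members, most of their receptor chains, and of each list up to 4 genes with the largest differences among those with at least 50 UMIs. Also named were leading partner genes, up to 3 each, of members with at least 50 positive cells of a class in each library, among genes with at least 100 UMIs there. Further list genes past 1.5-fold were named after their values were seen, as was the split of cells of neither class. Members and lists were chosen with earlier results of these data known. The values of 1 gene of the lists are not reported here.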

Additional observations from a re-analysis of the deposited data

Results flagged for a closer look

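Tgfb1 differed between libraries in opposite directions in the 2 classes: its log2 ratio of 4T1M over 4T1P was 0.43 in neutrophils and -0.24 in macrophages, with both intervals apart from 0. In the S100-low cells with neutrophil markers, left out of the neutrophil class, it was -0.56 (-1.07 to -0.03), opposite to the neutrophils. With 1 library per condition the difference between classes was not tested.

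Barcodes outside the cell limits also carried these transcripts. In 4T1P they held 5732 UMIs of the 10 genes, 31.7% of all, and in 4T1M 2980 UMIs, 12.8% of all. Of these, 3984 and 1236 UMIs lay in the 136 and 49 barcodes with more than 5000 detected genes. Il12b had 104 UMIs in 17 barcodes outside the limits in 4T1P, close to the 105 in retained cells, and 48 UMIs in 10 barcodes of 4T1M. In 4T1P, 8 of the 17 had more than 5000 genes and held 89 of the 104 UMIs.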

How the results depend on the processing

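The counts (genes past 1.5-fold, shares apart, cells with both chains, list ranges) were recomputed under the alternatives, and 63 of 73 recomputed counts stayed within 1.5 times the value reported. In neutrophils, the 1 lower gene (Il27) became 0 with S100a8 and S100a9 at 3%, with a fold of 2, with a minimum of 50 UMIs and without the 5 cells with the most UMIs of the gene in each library, where the Il27 log2 ratio turned to 0.57. That last step took 5 of 7 positive neutrophils in 4T1P and 5 of 13 in 4T1M, so it cannot decide the direction. In macrophages, the 5 higher genes became 2 at a mitochondrial limit of 5%, 3 with macrophage markers at 1% and 2 with a fold of 2. With median-of-ratios size factors, an alternative added after seeing the data, 5 genes in place of 3 were lower in macrophages than in neutrophils of 4T1P. The Inhba log2 ratio of macrophages over neutrophils in 4T1M turned from 0.67 to -0.22 with TMM factors, -0.34 with median-of-ratios factors and -0.61 with stricter class limits. Among 20 combinations of gene and class, the shares thinned to 1000 UMIs were higher in 4T1M with intervals apart for 2, Il23a in neutrophils and Inhba in macrophages. At 500 UMIs neither was apart, and 1 other was, Ebi3 in macrophages. Cells with both chains of a pair numbered 67, and 3 after thinning to 1000 UMIs. Of 242 recomputed log2 ratios, 4 that were past 1.5-fold as reported changed sign. Of the rest, 190 stayed within the reported interval and 48 moved beyond it. Sign changes of ratios not past 1.5-fold, such as those of Osm with TMM factors, were not counted as reversed. Leaving out 5 cells, removing the upper gene limit and adding the S100-low cells with neutrophil markers were also chosen after seeing the data. The causes were not tested. No paired analysis was possible because each condition had 1 library. Few UMIs stood behind Il12a in macrophages (3 and 13), Il27 in neutrophils (9 and 14) and Il6 in 4T1P neutrophils (7).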
